A study of Mus musculus with 12 samples.

Results

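The cytosolic RNA and DNA sensor genes form a set of 9 genes chosen by name: Ddx58, Ifih1, Dhx58, Mavs, Mb21d1, Tmem173, Trex1, Samhd1 and Adar. Each symbol was found in exactly 1 of the 46729 entries of the expression table, and all 9 passed the filter on low values. The cells were bone-marrow-derived macrophages of C57BL6 mice, grown for 10 days with interleukin-3 early on and with L-929 cell conditioned medium, which supplies colony-stimulating factor 1. Fresh medium then brought them interferon gamma (IFNγ), a cytokine of T and NK cells, over 8 h at a dose of 0.2, 2 or 20 U/ml, or no cytokine. The label of the highest dose reads only U, taken here as U/ml. The 4 groups have 3 libraries each, and nothing in the labels says whether these came from separate animals or cultures.

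The expression table holds 1 value per group in FPKM (fragments per kilobase of transcript and per unit of library size), so no difference below has a replicate check, an error or a p-value, and the sequencing depth is unknown. Ratios are differences of log2(FPKM + 1), and a log2 ratio of at least 1 in size, the rule of size below, defined an entry as higher or lower. Fold differences are plain ratios of FPKM. The study asked how macrophages respond to IFNγ.

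Cells detect viral and misplaced self nucleic acid in the cytosol with dedicated proteins. RIG-I (Ddx58) and MDA5 (Ifih1) bind double-stranded RNA and signal through MAVS on mitochondria, and LGP2 (Dhx58), a related helicase without signalling domains, modulates them. The enzyme cGAS (Mb21d1, now Cgas) binds DNA and makes the messenger cGAMP, which activates STING (Tmem173, now Sting1) on the endoplasmic reticulum. Both routes meet at the kinase TBK1 and the transcription factor IRF3, which drive type I interferon genes. TREX1 digests cytosolic DNA, SAMHD1 removes the nucleotides needed for DNA synthesis, and ADAR1 edits adenosine to inosine in double-stranded RNA, so that all of them keep self nucleic acid from triggering the sensors.

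Promoter windows of 300 bases, 250 before and 50 after each RefSeq start site on GRCm38.p6, were present for 7 of the 9 genes, in 10 windows. They were searched on both strands for GAAA and GAAA separated by any 2 bases, the core of an interferon-stimulated response element (ISRE-type), and for TTCNNNGAA, the core of a gamma-activated site (GAS-type). The sequences below are the 30 bases around each match of these 2 motifs, which was found for 4 genes. These 4 were among the genes higher at 20 U/ml, as was the Trex1 entry, whose windows held no match. Dhx58 and Tmem173, also higher there, had no window and were not searched. Each reads 5′ to 3′ on the strand of its gene, with the match in capitals.
Ddx58, chr4:40239804-40239833, minus strand, ISRE-type in reverse orientation: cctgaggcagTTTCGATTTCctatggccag
Ifih1, chr2:62646206-62646235, minus strand, ISRE-type: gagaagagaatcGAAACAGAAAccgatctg
Samhd1, chr2:157135312-157135341, minus strand, GAS-type: acaccaccctTTCGGAGAAacacaagggcg
Adar, chr3:89730730-89730759, plus strand, GAS-type: gggaagccttTTCAAGGAAacgaaagtgaa
The first base of the match lay at position 3 from the start site for Ddx58, 33 for Ifih1, -235 for Samhd1 and 23 for Adar.

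The ISRE-type motif was present in 3.44% and the GAS-type motif in 8.30% of all 32851 promoter windows. The windows of Mavs, Mb21d1 and Trex1 held neither. Of the 3 Adar windows, only the one at start site 89730718 held a match. It overlaps the start, in the annotation, of transcripts distinct from those that begin at 89715022. In this window the shorter motif GAAANNGAA (8.56% of windows) also matched, at positions -249 and 34, the latter overlapping a match of GAAANGAAA (3.17%) at 29. GAAANNGAA also matched at -112 and 33 of Ifih1 and at 4 of Ddx58, where the matches at 33 and 4 lie within the ISRE-type ones. These 2 letter patterns were chosen after the windows had been read, and GAAANGAAA also occurs at position -60 of Ddx58. A match describes letters only, and binding was not measured.

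At 20 U/ml, 7 of the 9 sensor genes were higher than in untreated cells and 0 were lower. Over all 11580 entries, 754 (6.51%) were higher and 340 (2.94%) lower, and with upper-quartile scaling, which moved the median of all entries to -0.11, these were 629 and 473. The median log2 ratio was 1.98 for the sensor genes against 0.01 for all entries. In the order of their ratios, Samhd1 (3.29), Dhx58 (2.90), the entry of Trex1 (2.68), Ifih1 (2.46), Adar (1.98), Tmem173 (1.91) and Ddx58 (1.57) were past the rule. Mb21d1 (0.52) and Mavs (0.33) were not. In bulk RNA, a larger share of cells expressing a gene and more RNA per cell cannot be told apart.

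**Figure D1:**
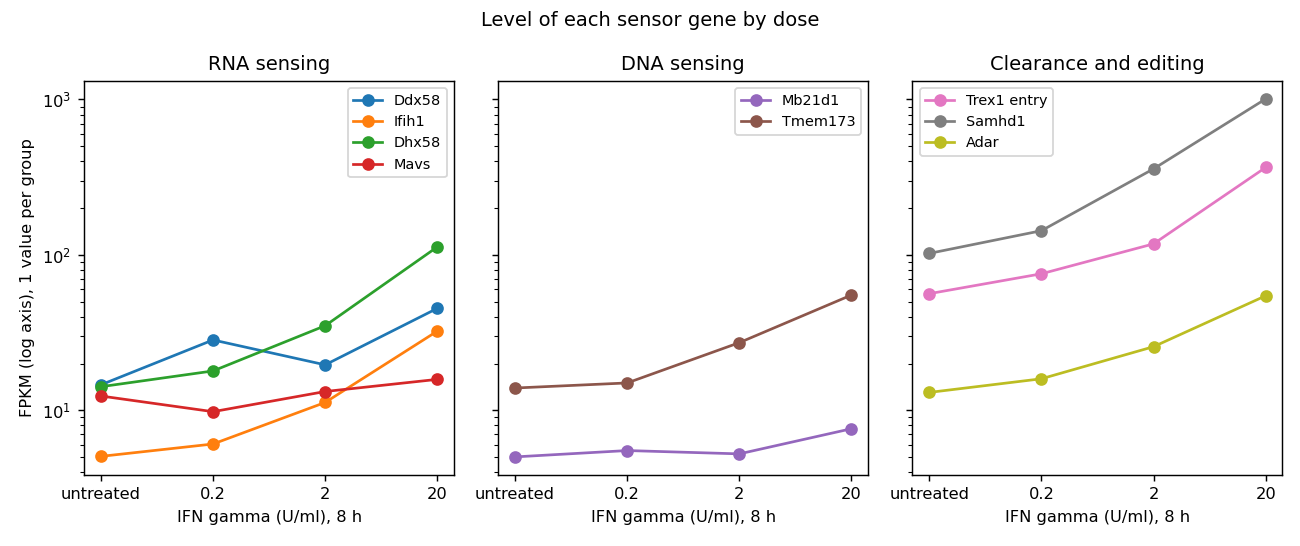
FPKM on a log axis in untreated cells and at 0.2, 2 and 20 U/ml IFNγ, 1 deposited value per gene and group, in panels by role. Samhd1 is the highest line in every group, at 102 to 1008 FPKM. The line of Mavs lies between 9.80 and 15.8 FPKM and that of Mb21d1 between 5.01 and 7.61 FPKM.

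Among the RNA sensors, Ifih1 was the lowest in untreated cells. Ifih1 (chromosome 2, 62595798 to 62646255, minus strand), which recognises long double-stranded RNA, was at 5.05 FPKM untreated and at 6.07, 11.2 and 32.3 FPKM at 0.2, 2 and 20 U/ml. Each dose was above the one before, and the highest was 6.39-fold over untreated. Dhx58 (chromosome 11, 100694884 to 100704271, minus strand) was at 14.2, 17.9, 35.0 and 112 FPKM in the same order, 7.93-fold at 20 U/ml. Its antisense neighbour Dhx58os overlaps it and stood at 0.283 FPKM or less in each group.

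The values of Ddx58 did not follow the order of the doses. Ddx58 (chromosome 4, 40203773 to 40239828, minus strand), which recognises short double-stranded RNA with a 5′ triphosphate, was at 14.6 FPKM untreated, 28.4 at 0.2, 19.6 at 2 and 45.3 at 20 U/ml. The lowest dose thus stood above the middle one, with log2 ratios to untreated of 0.91 and 0.40. The group at 0.2 U/ml also had 606 entries (5.23%) higher than untreated, against 289 (2.50%) at 2 U/ml. Of the 754 entries higher at 20 U/ml, 98 (13.0%) likewise stood above untreated at 0.2 U/ml and lower at 2 than at 0.2 U/ml. The part of this feature of the 0.2 U/ml group in the Ddx58 value was not tested.

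The balance among the 3 helicase genes differed between doses. The ratio of Dhx58 to Ddx58 FPKM was 0.972 without IFNγ, 0.632 at 0.2, 1.79 at 2 and 2.48 at 20 U/ml. Ifih1 stood at 0.346 of the Ddx58 level without IFNγ and at 0.214, 0.573 and 0.714 of it with increasing dose. Both ratios were thus lowest at 0.2 U/ml, where Ddx58 was above its value at 2 U/ml. The ratio of Dhx58 to Ifih1 was 2.81, 2.95, 3.12 and 3.48 in the same order.

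Mavs, the adaptor that both RIG-I and MDA5 need, did not pass the rule of size in any comparison. Mavs (chromosome 2, 131234063 to 131248025, plus strand) was at 12.4 FPKM untreated and at 9.80, 13.2 and 15.8 FPKM with increasing dose. Its 20 U/ml value was 1.28-fold over untreated, and 22.9% of all entries had a log2 ratio at least as large.

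In the DNA route the enzyme and the adaptor differed from each other. Mb21d1 (chromosome 9, 78430526 to 78443237, minus strand) was at 5.01, 5.51, 5.24 and 7.61 FPKM from untreated to 20 U/ml, the lowest of the 9 genes at each IFNγ dose and in untreated cells. Its highest value was 1.52-fold over untreated, and 14.6% of all entries had a log2 ratio at least as large. Tmem173 (chromosome 18, 35733679 to 35740554, minus strand) was at 13.9, 15.0, 27.2 and 55.2 FPKM, with each dose above the one before and 3.97-fold at 20 U/ml.

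The adaptors of both routes were then set against each other. The ratio of Tmem173 to Mavs was 1.13 in untreated cells, 1.53 at 0.2, 2.06 at 2 and 3.49 at 20 U/ml. The ratio of Tmem173 to Mb21d1 was 2.77 without IFNγ and 7.25 at 20 U/ml. The overlapping pseudogene Gm8093, on the strand opposite Mb21d1, had 0.477 FPKM untreated and 1.64 at 20 U/ml.

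Of the genes that limit the sensors' ligands, Samhd1 and the Trex1 entry held the highest levels of the set, while Adar lay among the sensors. Samhd1 (chromosome 2, 157097533 to 157135265, minus strand) was at 102 FPKM untreated and at 143, 357 and 1008 FPKM with increasing dose, 9.86-fold at 20 U/ml. By level it ranked 1169 of 11580 entries without IFNγ and 108 at 20 U/ml. It was also the only one of the 9 genes to be higher at 2 than at 0.2 U/ml by the rule of size, with a log2 ratio of 1.32.

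Trex1 (chromosome 9, 109057933 to 109059734, minus strand) lies inside the span of Atrip on the same strand, and the table merges them with Gm42641, so the reads of these genes cannot be told apart. This entry was at 56.3, 75.6, 118 and 365 FPKM from untreated to 20 U/ml, 6.49-fold at the end. Adar (chromosome 3, 89715022 to 89753446, plus strand) was at 13.0, 15.9, 25.7 and 54.5 FPKM, 4.18-fold at 20 U/ml. Its gene has a constitutive and an interferon-inducible start site, and 1 value per gene does not separate their transcripts. Chrnb2, which overlaps Adar on the opposite strand, was at 3.12 FPKM untreated and 6.48 at 20 U/ml.

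**Figure D2:**
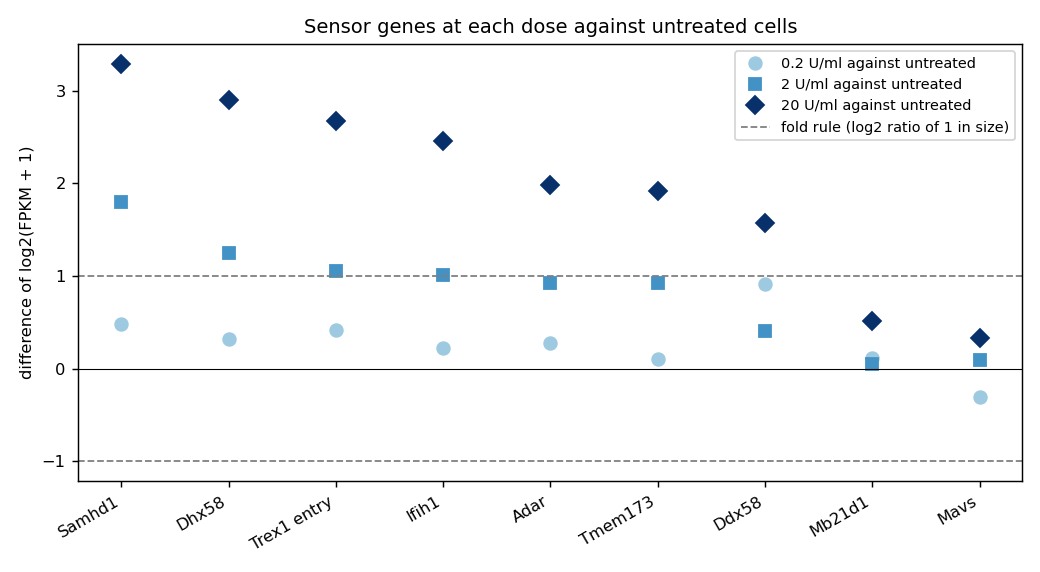
Differences of log2(FPKM + 1) between each dose and untreated cells for the 9 sensor genes, ordered by the value at 20 U/ml, with dashed lines at the rule of size. The 20 U/ml points of 7 genes lie above the upper line, and the 0.2 U/ml point of Ddx58 (0.91) lies above its 2 U/ml point (0.40).

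At 2 U/ml, 4 of the 9 genes were higher and 0 lower, beside 2.50% of all entries higher and 0.760% lower. These were Samhd1 (log2 ratio 1.80), Dhx58 (1.25), the Trex1 entry (1.05) and Ifih1 (1.01). Adar (0.93) and Tmem173 (0.92) lay just under the rule, which thus divides close values. With upper-quartile scaling Ifih1 (0.96) and the Trex1 entry (0.99) were also under the rule, which left 2 genes. The median over the set was 0.93, and over all entries 0.01.

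At 0.2 U/ml, 0 of the 9 genes passed the rule in either direction, beside 5.23% of all entries higher and 0.328% lower. Ddx58 (0.91) came nearest, followed by Samhd1 (0.48), the Trex1 entry (0.42) and Dhx58 (0.32). Mavs was the only one of the 9 below untreated as deposited, at -0.31, and with upper-quartile scaling Tmem173 was also just below 0. The median log2 ratio was 0.27, against 0.00 for all entries.

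Doses were then set against one another. From 2 to 20 U/ml, 6 of 9 genes were higher and 0 lower, beside 2.90% and 1.11% of all entries. The largest ratios of this step were those of Dhx58 (1.66) and the Trex1 entry (1.62), and Tmem173 was at 0.99, just under the rule. Adar (1.06) was under the rule with upper-quartile scaling (0.98) or quantile normalization (0.99), and Tmem173 passed it with a pseudocount of 0.1 or 0.01 (1.02 in both), so that the 6 genes were 5 or 7 under these settings. From 0.2 to 2 U/ml only Samhd1 was higher and 0 were lower, beside 1.51% and 6.26% of all entries. From 0.2 to 20 U/ml, 6 were higher and 0 lower, beside 6.06% and 8.58%, and Ddx58 (0.66) was not among the 6.

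The upper dose step was compared with the one below it. In 8 of the 9 genes, Mavs being the exception, the log2 ratio from 2 to 20 U/ml was larger than that from 0.2 to 2 U/ml, as in 53.6% of all entries. With quantile normalization Samhd1 (1.56 for the lower step, 1.46 for the upper) joined Mavs. The rule of size at 20 U/ml favours such genes, since 73.1% of the 754 higher entries shared this order. For the 6 genes higher at 20 U/ml other than Ddx58, the FPKM gained at 2 U/ml was between 19.9% (the Trex1 entry) and 32.3% (Tmem173) of that gained at 20 U/ml. At 0.2 U/ml it was between 2.63% and 7.03%.

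**Figure D3:**
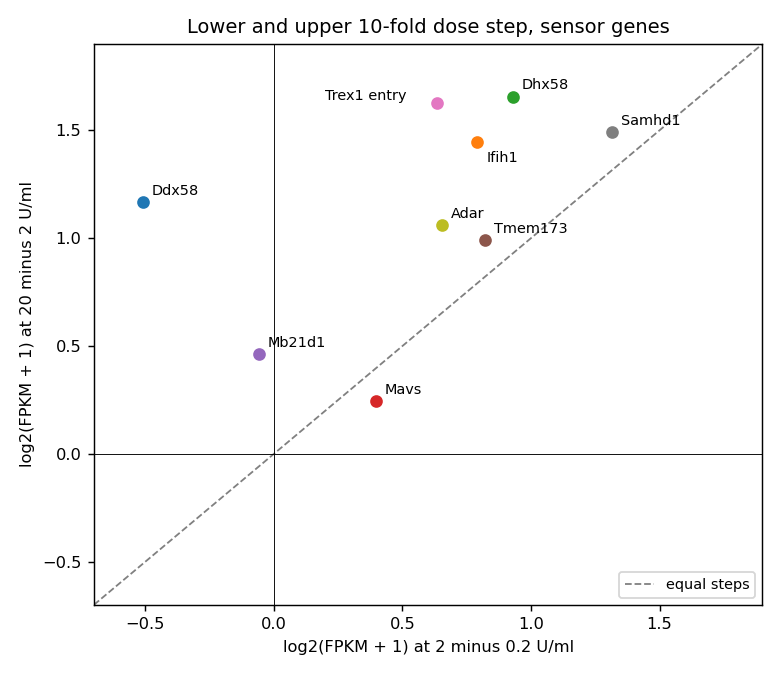
Difference of log2(FPKM + 1) from 0.2 to 2 U/ml (horizontal) and from 2 to 20 U/ml (vertical), 1 point per sensor gene, with a dashed line where both are equal. Only Mavs lies below the line in the values as deposited, and Ddx58 (-0.51, 1.17) and Mb21d1 (-0.06, 0.46) have a negative lower step.

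In 6 of the 9 genes as deposited, Ifih1, Dhx58, Tmem173, the Trex1 entry, Samhd1 and Adar, each dose was above the one before. This order was found in 9.28% of all entries and in 63.4% of those higher at 20 U/ml. With upper-quartile scaling Tmem173 left it, with a log2 ratio of -0.007 at 0.2 U/ml against untreated. The summed FPKM of the 9 entries was 237 in untreated cells and 1696 at 20 U/ml, a 7.17-fold difference. Samhd1 alone accounted for 43.2% of this sum without IFNγ and for 59.4% at 20 U/ml. The 7 entries other than Samhd1 and Trex1 together made up 33.0% and 19.1%.

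The spread of levels within the set widened with dose. The highest gene stood 20.4-fold over the lowest in untreated cells and 132-fold at 20 U/ml, with Samhd1 and Mb21d1 at the ends in both groups. In untreated cells Adar, Mavs, Tmem173, Dhx58 and Ddx58 all lay between 12.4 and 14.6 FPKM. At 20 U/ml the same 5 genes lay between 15.8 (Mavs) and 112 FPKM (Dhx58). Without a spread over libraries, none of these neighbours can be called different or equal.

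Profiles over the 3 doses were compared by the Euclidean distance between log2 ratios to untreated, among 8001 single-gene entries of at least 200 nt and at least 5 FPKM in some group. Within the set, Tmem173 and Adar were the closest pair, at 0.19. Nearest entries outside the set were sought only for the 7 genes higher at 20 U/ml. Tor3a, an ATPase of the endoplasmic reticulum, was the nearest entry to both, at 0.08 from Tmem173 and 0.11 from Adar, with 40.4 FPKM untreated and 158 at 20 U/ml. Nfxl1 was also among the 3 nearest to Tmem173, and the complement gene C1ra and Naaa were among those nearest to Adar. C1ra was at 0.573 FPKM in untreated cells, where the pseudocount shapes the ratio.

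The nearest profiles of the other higher genes were of varied kinds. The Trex1 entry had the chemokine Ccl7 (0.09), Daxx and Ifi202b. Ifih1 had the feedback inhibitor Socs3 (0.14), Gpr84 and the peptidoglycan sensor Nod1. The pseudocount also shapes the ratio of Socs3, which was at 1.06 FPKM in untreated cells. Dhx58 had Timd4 (0.05), Ubd and BC147527, of which Timd4 and Ubd were at 0.325 and 0.0209 FPKM in untreated cells, where the pseudocount shapes the ratio. Samhd1 had Gm5431 (0.12), the ubiquitin ligase Rnf213 and Ass1.

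Of the 7 genes, Ddx58 had the largest distance to its nearest entry, Zfp281 (0.26), followed by Scarf1 and Timeless. All 3 shared its order, with a higher value at 0.2 than at 2 U/ml, which their choice by a similar profile favours. Zfp281 was at 7.17 FPKM untreated and at 12.6, 10.3 and 20.5 FPKM with increasing dose.

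The rest of the pathway was described with a list of 135 genes in 7 roles, of which 109 entries could be used. At 20 U/ml, 14 of these (12.8%) were higher and 2 lower, beside 6.51% and 2.94% of all entries, and the median log2 ratio was 0.18. At 2 U/ml, 7 (6.42%) were higher and 0 lower, beside 2.50% and 0.760%. At 0.2 U/ml, 4 (3.67%) were higher and 0 lower, beside 5.23% and 0.328%. Of these, Zbp1 (1.65) was also higher at 2 and 20 U/ml. The others were not, as with Ankrd17 (2.19 at 0.2, -0.18 at 2 and 0.44 at 20 U/ml). The list was written with earlier results of these data known, so its shares describe the list and are not independent evidence. The roles were not tested against each other.

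**Figure D4:**
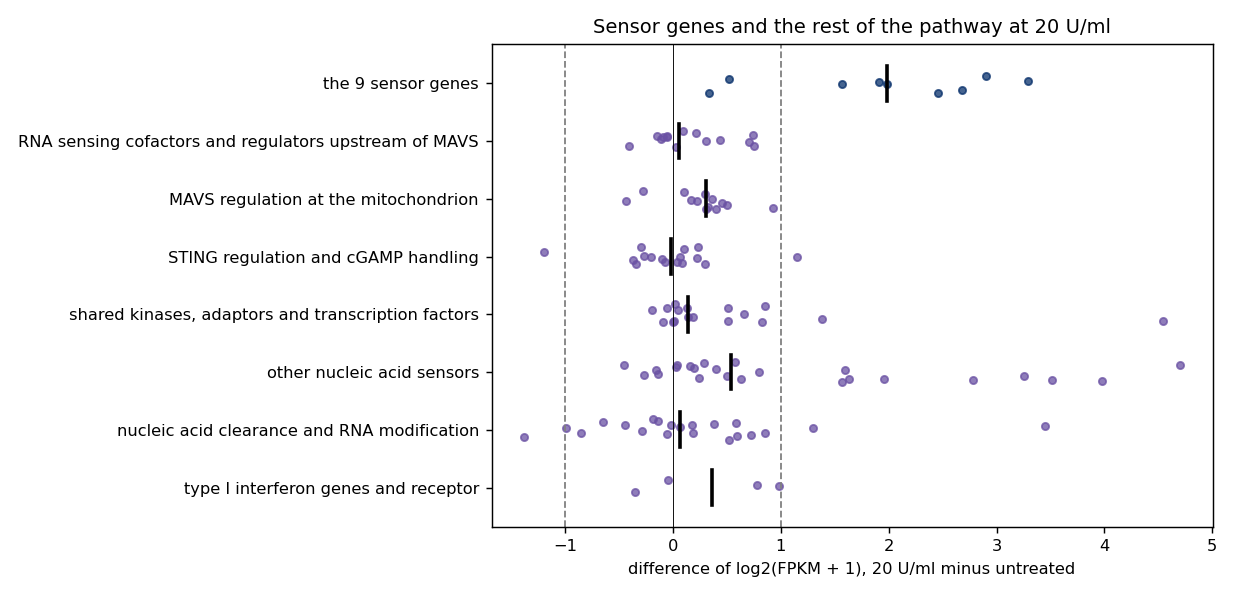
Differences of log2(FPKM + 1) between 20 U/ml and untreated cells for the sensor genes and for the pathway list by role, 1 point per entry, with a black bar at each median and dashed lines at the rule of size. Points past the upper line are found mainly among the sensor genes (7 of 9) and the other nucleic acid sensors (9 of 24).

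Other nucleic acid sensors were the role with the most higher entries, 9 of 24 (37.5%, beside 6.51% of all entries) at 20 U/ml and 0 lower, with a median of 0.54. This share is not an independent result about the role, because its genes were listed with earlier results of these data known. In each of the remaining roles 0 to 2 entries were higher, too few to read against the 6.51% as a result about the role. Zbp1, which binds Z-form nucleic acid and can trigger necroptosis, was at 15.9 FPKM untreated and at 52.1, 163 and 437 FPKM with increasing dose. Ifi204, a DNA-binding protein of the PYHIN family, was at 18.4 FPKM untreated and 221 at 20 U/ml. Pyhin1 (log2 ratio 3.98) and Tlr9, the endosomal sensor of unmethylated DNA (3.26), completed the top 4. Pyhin1 was at 0.818 FPKM untreated and 27.6 at 20 U/ml, and Tlr9 at 0.474 and 13.1. Both were under 1 FPKM in untreated cells, where the pseudocount shapes the ratio.

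Cofactors and regulators that act on the RNA sensors upstream of MAVS showed 0 of 14 entries past the rule at 20 U/ml (beside 6.51% and 2.94% of all), with a median of 0.06. Rnf135, a ubiquitin ligase of RIG-I (0.75), the deubiquitinase Cyld (0.74) and the antiviral zinc finger gene Zc3hav1 (0.71) were largest. Ankrd17 (0.44) was at 448 FPKM at 0.2 U/ml against 97.2 untreated and 85.9 at 2 U/ml.

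Regulators of MAVS at the mitochondrion likewise had 0 of 13 entries past the rule, with a median of 0.31. Tomm70a, an import receptor that binds MAVS, came nearest at 0.93, with 16.2 FPKM untreated and 31.7 at 20 U/ml. Gpatch3 (0.50), Mfn1 (0.45) and Ndfip1 (-0.43) followed.

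Among 16 entries that regulate STING or handle cGAMP, 1 (6.25%, beside 6.51% of all entries) was higher and 1 lower at 20 U/ml, with a median of -0.02. The lower one was Enpp1, which hydrolyses cGAMP outside cells, at 6.72 FPKM untreated and at 7.36, 4.31 and 2.39 FPKM with increasing dose (log2 ratio -1.19). The higher one was Lrrc8c, a subunit of the anion channel that passes cGAMP, at 3.25 FPKM untreated and 8.41 at 20 U/ml (1.15). Npc1 (-0.37) and Sec61b (-0.34) came next.

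Of 17 shared kinases, adaptors and transcription factors, 2 (11.8%, beside 6.51%) were higher and 0 lower at 20 U/ml, with a median of 0.14. Both were interferon regulatory factors. Irf7 was at 17.2 FPKM untreated and 422 at 20 U/ml, and Irf5 at 78.0 and 205. The scaffold genes Azi2 (0.85) and Tbkbp1 (0.82), whose products bind TBK1, stayed under the rule.

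Nucleic acid clearance and RNA modification had 2 of 21 entries (9.52%, beside 6.51%) higher and 1 lower at 20 U/ml, with a median of 0.07. The exonuclease gene Isg20 was at 2.02 FPKM untreated and 32.0 at 20 U/ml, and Pnpt1, which degrades RNA in mitochondria, at 6.43 and 17.3. Rnaseh2c, a subunit of the enzyme that cuts RNA paired with DNA, was at -0.99, just short of the rule.

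Type I and III interferon genes were near or at 0. Of 17 listed, 15 were listed at 0 in all 4 groups, and an exact 0 in such a table can be a failed estimate. Ifnb1 was listed at 0 in untreated cells and at 0.109, 0.0493 and 0.500 FPKM with increasing dose, all under 1 FPKM. Of the 4 usable entries for their receptor and its signalling, 0 passed the rule at 20 U/ml. These were the merged entry of Irf9 and Rnf31 (0.98), Tyk2 (0.78), the merged entry that holds Ifnar2 (-0.05) and Ifnar1 (-0.35).

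Of 8 macrophage markers 0 stayed under 1 FPKM, and their sum was 2780 FPKM untreated and 2216, 2566 and 2863 FPKM with increasing dose. Csf1r was at 349 FPKM untreated and 418 at 20 U/ml, Cd68 at 1814 and 1503, Cd14 at 301 and 256, and Fcgr1 at 32.3 and 348. Of 22 markers of T and NK cells, B cells, mast cells, erythroid cells and fibroblasts, 21 stayed under 1 FPKM in all groups, and Cd3e was listed at 0. Of 5 conventional dendritic cell markers 4 stayed under 1 FPKM, and their sum was 1.80 FPKM untreated and 48.3 at 20 U/ml through the merged entry of Clec1b and Clec9a. Of 6 plasmacytoid dendritic cell markers 2 stayed under 1 FPKM, and the sum was 278 FPKM untreated and 1321 at 20 U/ml. It was mostly Bst2, which interferon induces in many cells. Tcf4 was at 53.9 FPKM untreated and at 54.1, 21.2 and 44.5 FPKM with increasing dose. Cox6a2 was at 3.60 FPKM untreated and 9.16 at 20 U/ml. Siglech was at 0.177 and 0.101, and at 1.97 in the 0.2 U/ml group. Of 6 neutrophil markers 4 stayed under 1 FPKM, with Ly6g at 0 and 0.124 FPKM, and their sum, mostly S100a8, was 16.7 and 34.7 FPKM. Osteoclast markers summed to 38.8 FPKM untreated and 23.7 at 20 U/ml, mostly Ctsk at 31.9 and 15.7. Acp5 was at 6.77 and 6.18 FPKM, Calcr at 0 and 0.00259, and Ocstamp went the other way, from 0.142 to 1.80. The part of these cell types in the sensor gene values was not tested.

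The authors' deposited table of treated against untreated cells names no dose. In the authors' deposited table Tmem173 had a log2 fold change of -2.33 (q = 9.95e-05), Mavs -1.12 (q = 9.95e-05), the Trex1 entry -0.82 (q = 9.95e-05) and Dhx58 -1.56 (q = 0.0204). The authors' deposited table gave the other 5 genes q-values between 0.375 (Adar) and 0.972 (Samhd1). Tmem173, Dhx58 and the Trex1 entry, negative there, were higher at 20 U/ml in the FPKM table. How often all entries of the authors' table were negative or had q-values this low was not computed. The named fold changes are thus not read as a result about the set. Across 11377 entries the authors' fold changes had Pearson correlations of -0.02, -0.01 and 0.04 with the log2 ratios at 0.2, 2 and 20 U/ml. Genes are not independent replicates, and which samples that table compares could not be told.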

How the data were processed

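RNA of 12 mouse macrophage libraries was sequenced, 3 per group. Per the submitters' processing notes, the authors worked on mm10 with Cufflinks 2.1.1, Cuffdiff 2.1.1 and TopHat2 2.1.1. The deposited table gives 1 FPKM value per entry and group, per the file headers. FPKM is fragments per kilobase of transcript and per unit of library size. The untreated column names no unit and was read as FPKM from its range. How the 3 libraries were combined, the depth and the use of strand are not given in the sources used here.

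Of 46729 entries, 11852 averaged at least 1 FPKM across the 4 groups, and 272 of these, listed at 0 in a group, were left out. The other 11580 gave ratios as differences of log2(FPKM + 1), with a pseudocount of 1 (Python 3.11.15, pandas 2.3.3), which understate differences of low entries. As planned for 1 value per group, a log2 ratio of at least 1 in size, 2-fold on this scale, was the rule for higher or lower. A test over libraries was planned only if a value per library was given, which was not the case. The computation was tested on simulated data with changes well past the rule. This checks the arithmetic only and gives no measure of the spread between libraries. Beside the 9 sensor genes, the genes named are up to 4 of each pathway list that differed most at 20 U/ml, any lower there by the rule, and the 3 nearest entries by dose profile. Some genes that this takes are not reported here. The sensor genes and lists were chosen with earlier results of these data known.

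A second table of the authors gives a log2 fold change, a p-value and a q-value for treated against untreated, per the file headers. Its 2 value columns fit no labelled group and were not used. Gene positions are those of GENCODE M21 (GRCm38, equal to mm10) and promoter sequences from RefSeq on GRCm38.p6. Alternatives were another pseudocount, filter, scaling or rule of size.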

Additional observations from a re-analysis of the deposited data

How the results depend on the processing

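No paired analysis was possible because the table holds 1 value per group, so no library could be left out or blocked either. All 7 genes higher at 20 U/ml against untreated remained past a log2 ratio of 1 with the other pseudocounts, filters and scalings, except that the Trex1 entry drops out when merged entries do. At 2 U/ml against untreated the 4 higher sensor genes were 2 with upper-quartile scaling and 1 with a log2 ratio of at least 1.5. That stricter rule also left 2 of 6 from 2 to 20 U/ml and 0 of 1 from 0.2 to 2 U/ml. In the pathway list it gave 2 higher for 4 at 0.2 U/ml against untreated, 0 lower for 2 at 20 U/ml, 1 higher for 6 and 1 lower for 4 from 0.2 to 2 U/ml, 5 higher for 10 from 2 to 20 U/ml, and 8 higher for 13 and 3 lower for 6 from 0.2 to 20 U/ml. Quantile normalization gave 2 higher at 0.2 U/ml and 4 lower at 20 U/ml in that list. Over all entries a pseudocount of 0.1 gave 539 lower for 340 at 20 U/ml, 174 for 88 at 2 U/ml and 71 for 38 at 0.2 U/ml, and 0.01 gave 572, 192 and 76. At the same pseudocounts 275 and 288 were higher for 175 from 0.2 to 2 U/ml, and 248 and 276 lower for 128 from 2 to 20 U/ml. Keeping entries listed at 0 gave 106, 154 and 203 lower at 0.2 and 2 U/ml and from 2 to 20 U/ml, and a mean of at least 5 FPKM gave 24 and 58 at the first 2. With a log2 ratio of at least 1.5, 265 were higher and 18 lower at 0.2 U/ml, 147 and 22 at 2 U/ml, 415 and 95 at 20 U/ml, 65 and 310 from 0.2 to 2, 157 and 27 from 2 to 20 and 334 and 415 from 0.2 to 20 U/ml. The filter that ignored 0.2 U/ml, chosen after seeing the data, moved no count of sensor or pathway genes by over 1.5 times. Depth is unknown, so no counting error could be given.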
